A study of Mus musculus with 44 samples.

Results

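The genes for heterotrimeric G protein subunits and for Rgs proteins were examined in Crh neurons of the mouse amygdala after tone exposure, fear conditioning and fear extinction. Members were taken by symbol: the Gna, Gnb and Gng genes of the subunits and the genes named Rgs with a number. The rule found 37 of the 8203 genes in the table, of which 11 encode alpha subunits, 4 beta subunits and 7 gamma subunits, and 15 carry an Rgs name. One of the last group, Rgs7bp, encodes a binding protein of Rgs proteins and not an Rgs protein itself.

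A G protein-coupled receptor, once occupied by its ligand, lets the alpha subunit exchange GDP for GTP. The alpha subunit then parts from the beta-gamma pair, and both act on effectors such as adenylyl cyclase, phospholipase C and potassium channels. Rgs proteins speed the hydrolysis of GTP by the alpha subunit and so shorten the signal. Gs and Golf alpha subunits stimulate adenylyl cyclase, Gi and Go alpha subunits inhibit it, and Gq alpha subunits act on phospholipase C. In the amygdala these proteins carry the signals of dopamine, noradrenaline, opioids and corticotropin-releasing hormone, the peptide that Crh encodes.

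Adult Crh-TRAP mice carried Cre recombinase driven by the Crh promoter and a Cre-dependent ribosomal protein L10a fused to eGFP, with 1 copy of each transgene in every mouse of every group. Ribosomes were pulled down by the GFP tag from amygdala punches, so that the RNA is enriched for, but not confined to, Crh neurons. Each library came from 1 mouse. TA mice (n = 16, 10 males and 6 females) heard the tones without shock, FC mice (n = 12, 6 males and 6 females) received 5 tone-shock pairings, and EXT mice (n = 16, 10 males and 6 females) were conditioned in the same way and, on the next day, heard 30 tones without shock in another context. EXT mice thus differed from TA mice by the earlier shocks, the extinction session and the additional day, which cannot be told apart. The values are log2 CPM (counts per 1000000 reads), called levels below.

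Libraries held 12802113 to 20440351 reads, with medians of 18015590 in TA, 16977973 in FC and 15412341 in EXT mice. The lowest read count of any member in any mouse was 71, and the members took 0.546% to 0.911% of the reads. The labels name 5 batches. Batches 1, 2 and 5 held mice of all groups, whereas batch 3 (5 mice) and batch 4 (1 mouse) held EXT mice only, so that batch and group cannot be told apart in those 6 mice. Batch taken alone explained a median of 41.6% of the variance of a member's level, from 10.95% for Gnai3 to 89.0% for Gng3, and the group explained a median of 8.80%. Over all 8203 genes the medians were 41.5% and 7.93%. Batch explained more than the group in 36 of 37 members, the exception being Gnai1. Each comparison between groups is therefore given with batch as a number, over all mice, and inside batches 1, 2 and 5. The latter compares mice of the same batch only. The batch numbers are names, so a linear term for them need not remove the differences between batches. The interaction with sex is given with batch as a number and was not fitted inside the shared batches. Of the markers listed for central amygdala neurons 13 of 14 were in the table, with Slc32a1 not among them. The median level of Crh was 5.73 in TA, 5.35 in FC and 5.03 in EXT mice, and that of the GABA-synthesizing enzyme Gad1 was 9.38, 9.29 and 8.77. Markers of astrocytes (11 of 11), oligodendrocytes (12 of 13) and striatal projection neurons (17 of 18) were present as well, while 1 of 11 microglial and 0 of 13 endothelial and mural cell markers were. The absent striatal entry was Drd1a, listed beside Drd1, which was present. Penk and Tac1 were in both the striatal and the central amygdala list, so these lists are not separate. In bulk RNA of this kind, fewer cells of a type and less RNA per cell cannot be told apart.

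Levels of different members were compared as log2 CPM per kilobase of exon. Among the alpha subunits Gnai2 (7.20) and Gnai1 (6.83), which encode inhibitory alpha subunits, stood highest, followed by Gna11 (6.09) of the Gq family and by Gnaz (5.34), a further inhibitory subunit. Gna12 (5.01), Gnal (4.96) and Gnao1 (4.92) lay close together. Gna12 exceeded Gnal in 23 of 44 mice and Gnal exceeded Gnao1 in 27, so the order of these 3 was within the spread. Gnaq (4.29), Gnai3 (3.90), Gna13 (2.95) and Gnas (1.48) followed. Gnas, which encodes the stimulatory alpha subunit Gs, was thus the lowest alpha member per kilobase and lay below Gna13 in 44 of 44 mice. It is a complex locus with several promoters, and 23.7% of its exon bases are also exon bases of other genes, so its level depends on how reads were assigned. Gnal encodes Golf, the alpha subunit that couples dopamine and adenosine receptors to adenylyl cyclase in striatal neurons.

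Among the beta subunits Gnb5 (7.27) exceeded Gnb1 (6.38) in 41 of 44 mice, Gnb1 exceeded Gnb2 (5.66) in 44 and Gnb2 exceeded Gnb4 (3.31) in 44. Gnb5 is the atypical beta subunit that pairs with Rgs6, Rgs7 and Rgs9 in place of a gamma subunit. Gng3 (7.62) and Gng7 (7.55) led the gamma subunits, and Gng3 exceeded Gng7 in only 24 of 44 mice, which leaves their order within the spread. Gng4 (6.39), Gng2 (5.79), Gng5 (4.98), Gng13 (4.70) and Gng12 (3.60) came after them. Of the exon bases, 51.6% in Gng13, 24.2% in Gng3, 20.4% in Gng2 and 10.6% in Gnb5 are also exon bases of other genes. These levels too depend on how reads were assigned. Of the Rgs genes, Rgs4 (7.51), an inhibitor of Gi and Gq signalling, exceeded Rgs10 (6.36) in 40 of 44 mice. Rgs2 (6.20), Rgs14 (5.80) and Rgs7 (5.78) were next, and the lowest were Rgs12 (1.97), Rgs5 (1.94), Rgs6 (1.11) and Rgs3 (0.81). Rgs10 exceeded Rgs2 in 26 of 44 mice, Rgs14 exceeded Rgs7 in 29, and Rgs12 exceeded Rgs5 in 22. Rgs19 (5.00), Rgs7bp (4.94), Rgs20 (4.67), Rgs17 (3.83), Rgs8 (3.51) and Rgs9 (3.32) lay in between.

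**Figure D1:**
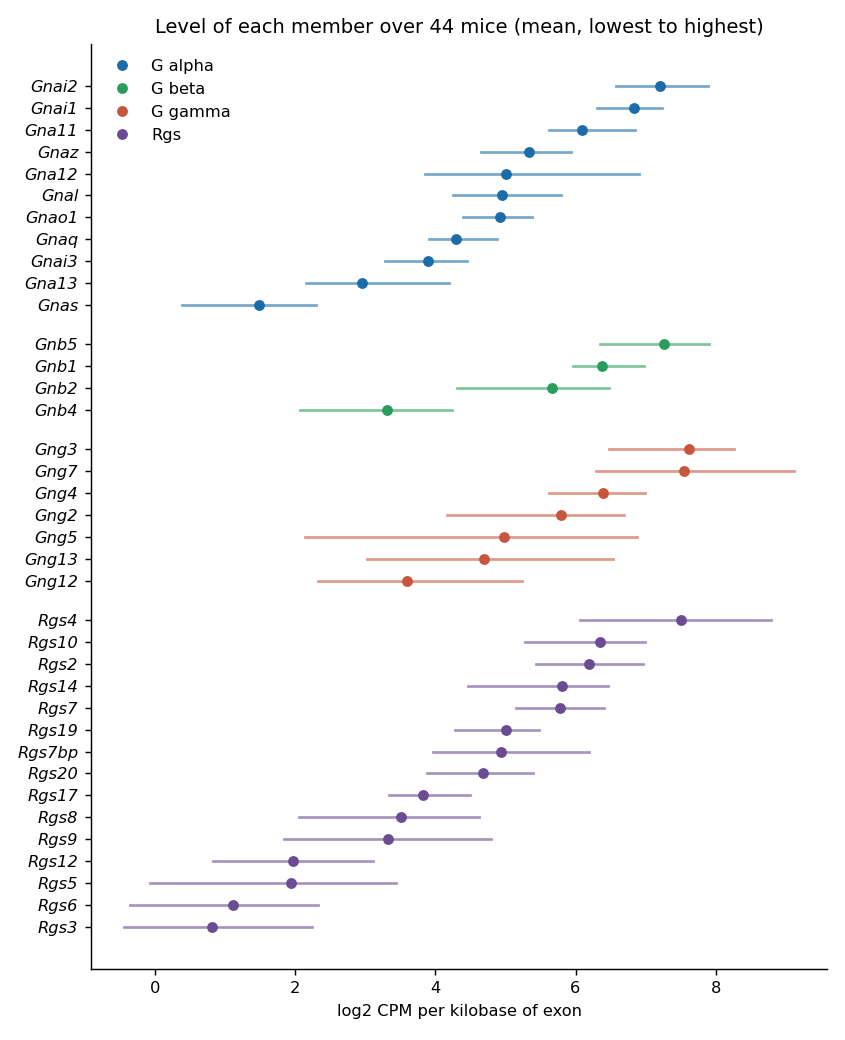
Level of each of the 37 members in log2 CPM per kilobase of exon (horizontal axis), ordered within each class. Points are means over 44 mice and lines run from the lowest to the highest mouse. Means span from 0.81 for Rgs3 to 7.62 for Gng3.

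The first comparison asked which members differed between extinguished and tone-alone mice. With batch as a number, 7 of 37 members (18.9%) passed an FDR-adjusted p of 0.05 in limma, 3 higher and 4 lower in EXT, beside 21.4% of all genes tested (854 higher and 901 lower). The share among the members was thus close to that of the table as a whole. Gng13, Rgs7bp and Gng7 rose, and Gnb4, Gnas, Gnai1 and Rgs14 fell. At an unadjusted p under 0.05 there were 16 members, beside 37.8% of all genes. The median difference of the members was -0.03 on the log2 scale, beside 0.01 over all genes. Inside the shared batches 0 of 37 members passed, beside 4.99% of all genes, and 4 had an unadjusted p under 0.05, beside 25.1%. The count was also 0 with batch as categories over all mice, with array weights and with log2 library size as a covariate.

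**Figure D2:**
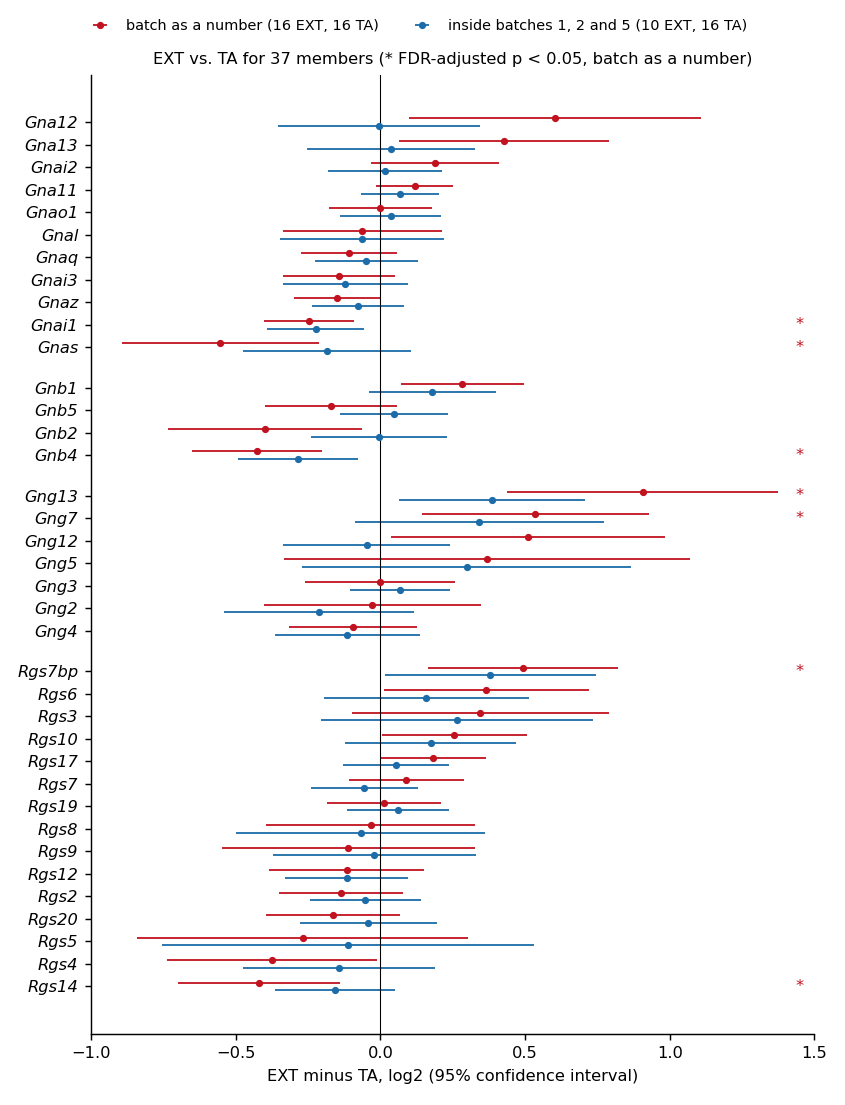
Difference in level between EXT and TA mice (horizontal axis, log2, EXT minus TA) with its 95% confidence interval for 37 members, with batch as a number (red) and inside the shared batches 1, 2 and 5 (blue). Asterisks mark the 7 members that passed with batch as a number. For Gng13 the difference is 0.91 in the first fit and 0.39 in the second.

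Gng13 (chr17:25717171-25719406, GRCm38), a gamma subunit first known from taste receptor cells, had the largest difference in size of the 37 members. Its level had a lowest value, median and highest value of 3.17, 3.99 and 4.83 in TA, 2.65, 4.14 and 4.84 in FC, and 3.60, 4.54 and 6.16 in EXT mice. The groups overlapped, but 6 EXT mice lay above every TA mouse and 14 of 16 lay above the TA median. The 6 were EXT replicates 2, 5, 8, 11 and 12, all of batches 3 and 4 without TA mice, and EXT replicate 1 of batch 2. The level of Gng13 was 0.91 higher in EXT than in TA (SE 0.23, FDR-adjusted p = 0.0139), or 1.88-fold. The differences in batches 1, 2 and 5 were 0.37, 0.74 and 0.20, and inside these batches the fit gave 0.39 (SE 0.16, FDR-adjusted p = 0.123). In batch 2 EXT replicate 1 lay at 5.995 and the other 2 EXT mice at 3.99 and 4.23, and without it the difference there was 0.11. The difference in batch 1 was 0.17 without EXT replicate 7. Of its exon bases 51.6% are shared with Chtf18 on the opposite strand, and the library kit is not stated to mark strand, so reads of both genes could not be told apart there.

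Gng7 (chr10:80948624-81014945), the gamma subunit that joins Golf in striatal neurons, had levels of 8.78, 9.31 and 10.21 in TA (lowest, median, highest), 8.21, 8.98 and 10.11 in FC, and 8.53, 9.89 and 11.04 in EXT mice. The 3 groups overlapped widely, with 13 of 16 EXT mice above the TA median and 2 below the lowest TA mouse. It was 0.53 higher in EXT than in TA (SE 0.19, FDR-adjusted p = 0.0456), and this call was lost in 22 of 32 refits that each left out 1 mouse. Within batches the differences were 0.36, 0.40 and 0.30, and inside the shared batches 0.34 (SE 0.21, FDR-adjusted p = 0.318). Single mice moved each batch value in both directions. In batch 1 it was -0.42 without EXT replicate 6 and 1.14 without EXT replicate 7. In batch 2 it was -0.09 without EXT replicate 1 and 1.00 without EXT replicate 9. In batch 5 it was 0.08 without EXT replicate 16 and 0.46 without EXT replicate 15.

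Rgs7bp (chr13:104945904-105054930) encodes a lipid-modified protein that holds complexes of Rgs7 or Rgs9 with Gnb5 at the membrane. Its levels were 7.16, 7.56 and 7.89 in TA, 6.79, 7.97 and 8.18 in FC, and 6.85, 8.06 and 9.01 in EXT mice. Of the 16 EXT mice 10 lay above the highest TA mouse and 2 below the lowest, so that EXT mice spread more widely than TA mice on both sides. The difference was 0.49 (SE 0.16, FDR-adjusted p = 0.0299). It was 0.47, 0.12 and 0.51 in batches 1, 2 and 5, and 0.38 inside them (SE 0.18, FDR-adjusted p = 0.182). Batch 1 held 2 EXT mice, and its value was -0.42 without EXT replicate 6 and 1.36 without EXT replicate 7. The value of batch 2 was -0.23 without EXT replicate 1 and 0.50 without EXT replicate 9. That of batch 5 was 0.30 without EXT replicate 16 and 0.66 without EXT replicate 15.

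Gnb4 (chr3:32580332-32616585), a beta subunit, had levels of 5.53, 6.12 and 6.80 in TA, 4.71, 6.10 and 6.88 in FC, and 4.99, 5.69 and 6.20 in EXT mice. Its level was under the TA median in 15 of 16 EXT mice and under the lowest TA mouse in 4. These 4 were EXT replicates 2, 11 and 12 of batches 3 and 4 and EXT replicate 1 of batch 2. Gnb4 fell by 0.43 in EXT (SE 0.11, FDR-adjusted p = 0.0147). In batches 1, 2 and 5 the differences were -0.29, -0.50 and -0.15, and the fit inside these batches gave -0.28 (SE 0.10, FDR-adjusted p = 0.0847). Without EXT replicate 1 the value of batch 2 was -0.32. The other beta subunits did not pass: Gnb1 came nearest, at 0.28 (FDR-adjusted p = 0.0501), with Gnb2 at -0.40 (FDR-adjusted p = 0.0753) and Gnb5 at -0.17 (FDR-adjusted p = 0.267). Gnb1 had levels of 7.76, 8.05 and 8.44 in TA and 7.80, 8.41 and 8.77 in EXT mice, and 8 EXT mice lay above every TA mouse. Among these were EXT replicates 2, 5, 8, 11 and 12, all of batches 3 and 4.

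Gnas (chr2:174284320-174346744) had levels of 4.52, 5.05 and 5.67 in TA, 4.27, 4.87 and 5.63 in FC, and 3.76, 4.72 and 5.53 in EXT mice. In EXT 7 mice lay below every TA mouse, and the 6 EXT mice of batches 3 and 4 held the levels from 3.76 to 4.24. Gnas fell by 0.55 in EXT (SE 0.17, FDR-adjusted p = 0.0215). The differences in batches 1 and 2 were -0.51 and -0.41 but 0.09 in batch 5, and the value inside the shared batches was -0.18 (SE 0.14, FDR-adjusted p = 0.439). The value of batch 2 was -0.11 without EXT replicate 1, and that of batch 5 was -0.02 without EXT replicate 4.

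Gnai1 (chr5:18265135-18360355) had levels of 8.30, 8.53 and 8.89 in TA, 8.16, 8.48 and 8.88 in FC, and 7.96, 8.38 and 8.70 in EXT mice. It fell by 0.25 in EXT (SE 0.08, FDR-adjusted p = 0.0240), the smallest called difference. Its level was under the TA median in 14 of 16 EXT mice. The differences in batches 1, 2 and 5 were -0.23 (0.04 without EXT replicate 6), -0.39 and -0.11, and the fit inside them gave a nearly equal value of -0.22 (SE 0.08, FDR-adjusted p = 0.0897). The other inhibitory alpha subunits were not called: the differences were 0.19 for Gnai2, -0.14 for Gnai3, 0.00 for Gnao1 and -0.15 for Gnaz.

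Rgs14 (chr13:55369732-55384687), a scaffold with an Rgs domain that limits synaptic plasticity in hippocampal CA2 neurons, had levels of 6.95, 7.26 and 7.70 in TA, 6.14, 7.06 and 7.60 in FC, and 5.70, 6.90 and 7.49 in EXT mice. The TA mice lay close together, and 9 of 16 EXT mice lay below all of them. Among these 9 were EXT replicates 2, 5, 8, 11 and 12, all of batches 3 and 4. Rgs14 fell by 0.42 in EXT (SE 0.14, FDR-adjusted p = 0.0298). The difference was -0.60 in batch 2 but 0.04 in both batch 1 and batch 5, and inside the shared batches it was -0.16 (SE 0.10, FDR-adjusted p = 0.345).

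**Figure D3:**
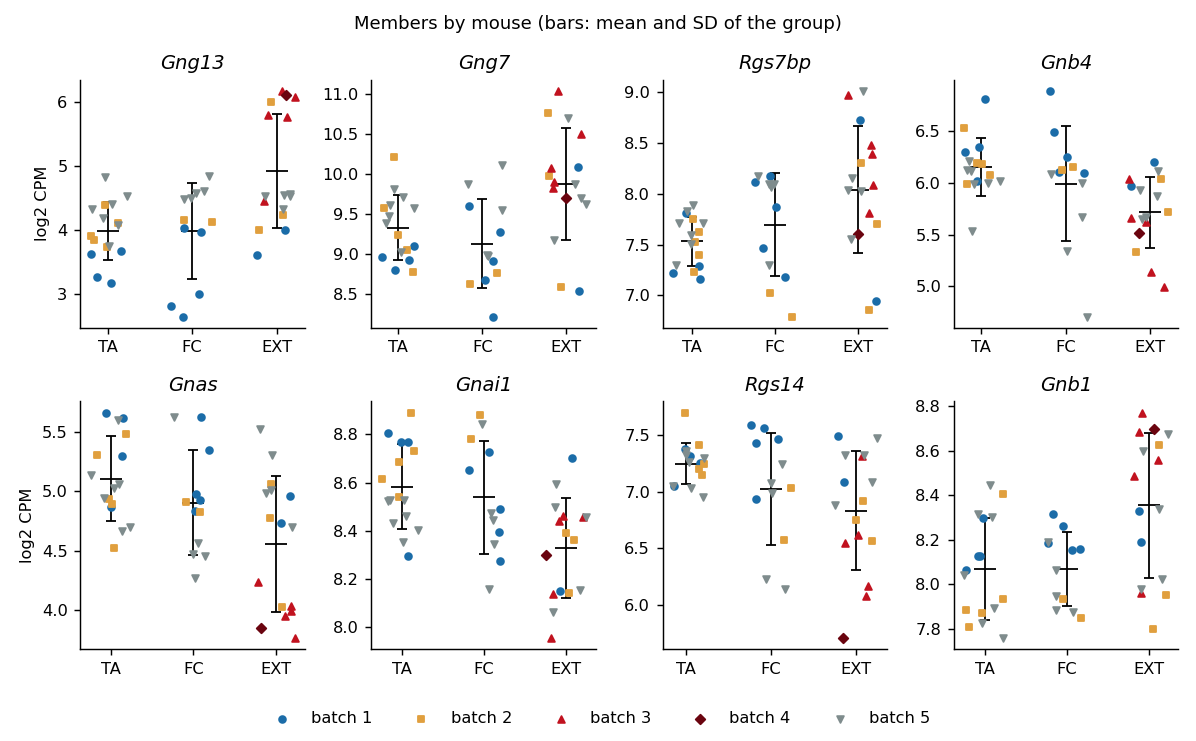
Level (vertical axis, log2 CPM) of the 7 members that passed in EXT vs. TA and of Gnb1 in each mouse, by group (16 TA, 12 FC and 16 EXT mice) and batch (colour and shape). Bars give the mean and SD of the group. For Gnas the EXT mice of batches 3 and 4 lie between 3.76 and 4.24.

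The sign of the difference was read in each shared batch, which rests on few mice: 2 EXT and 4 TA in batch 1, 3 EXT and 5 TA in batch 2, and 5 EXT and 7 TA in batch 5. The batch means of EXT exceeded those of TA in batches 1, 2 and 5 for 5 members, Gng13, Gng7, Rgs7bp, Gnb1 and Rgs10, and lay below them in each for 3 members, Gnai1, Gnb4 and Gng2. The remaining 29 members had mixed signs. Over all genes 19.2% were higher and 19.3% lower in each of the 3 batches. Single mice turned some of these signs, in each of these members except Gng13 and Gnb4. Of 26 refits that each left out 1 mouse of a batch, the sign in that batch turned in 0 for Gng13 and Gnb4, in 1 for Gnai1 and Gnb1, in 2 for Gng7, Rgs7bp and Rgs10, and in 3 for Gng2. Without EXT replicate 6 of batch 1, which leaves 1 EXT mouse there, the difference was -0.76 for Rgs10, 0.04 for Gnai1 and 0.49 for Gng2.

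The mean of the 6 EXT mice of batches 3 and 4 differed from that of the 10 other EXT mice in several members, though in 0 of 37 members did all 6 lie outside every other mouse, beside 42 of all genes (0.512%). Gna12 lay at 7.16, 7.96 and 8.68 (lowest, median, highest) in these 6 mice and at 5.62, 6.37 and 7.59 in the other 10. The mean was 1.60 higher, and 5 of the 6 mice lay above all 38 other mice of the study. Gng12 was 1.40 higher, Gng13 1.29 and Gna13 1.01, with 3, 3 and 4 of the 6 mice above all others. Gnb2 was lower by a difference of -1.04 and Gnas by -0.94, each with 4 of the 6 mice below all others. EXT replicate 1 of batch 2 lay near these mice, at 7.59 in Gna12, 6.97 in Gng12, 5.995 in Gng13, 6.54 in Gna13, 6.497 in Gnb2 and 4.02 in Gnas. EXT replicate 3 of batch 3 lay near the other EXT mice at 4.45 in Gng13. It lay between both sets at 7.16 in Gna12 and 5.94 in Gna13. At 6.60 in Gng12, 6.61 in Gnb2 and 4.24 in Gnas it lay nearer to the mean of batches 3 and 4. The median size of the difference was 0.29 over the members and 0.34 over all genes. In the same mice the mean level of the astrocyte markers had a median of 6.82, beside 5.81 in the other EXT mice. That of the oligodendrocyte markers was 7.34 beside 6.40, and that of the central amygdala markers 6.38 beside 7.34. The part of these marker lists and of the batch in the differences was not tested. With batch as a number, Gna12 (0.60, FDR-adjusted p = 0.0747), Gna13 (0.43, FDR-adjusted p = 0.0800) and Gng12 (0.51, FDR-adjusted p = 0.104) did not pass in EXT vs. TA.

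**Figure D4:**
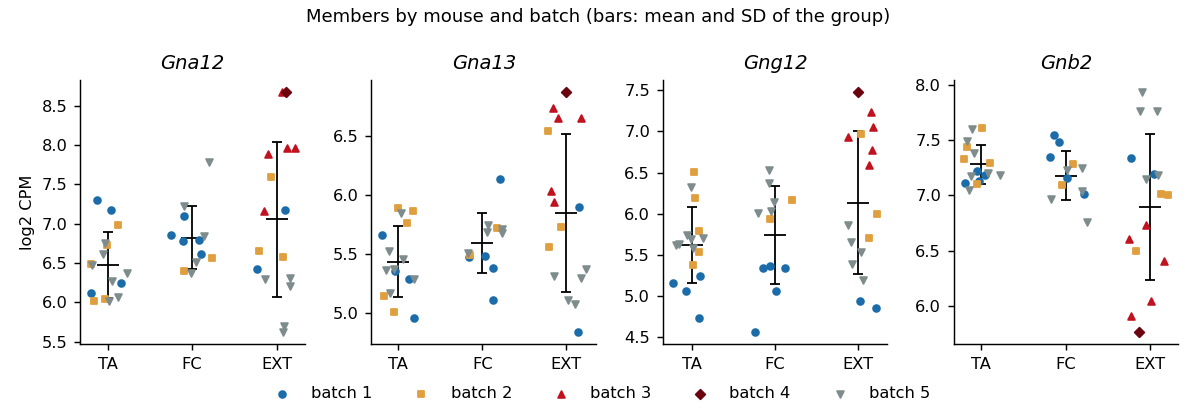
Level (vertical axis, log2 CPM) of Gna12, Gna13, Gng12 and Gnb2 in each mouse by group and batch, with the mean and SD of each group as bars. EXT mice of batches 3 and 4 are the red triangles and the dark red diamond. In Gna12 they run from 7.16 to 8.68, while the other EXT mice run from 5.62 to 7.59.

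The second comparison asked which members differed after fear conditioning alone. In FC vs. TA 0 of 37 members passed in limma, as did 0% of all genes, and 1 member had an unadjusted p under 0.05, beside 10.4% of all genes. This member was Gna12, with levels of 6.01, 6.42 and 7.30 in TA and 6.37, 6.78 and 7.79 in FC mice and a difference of 0.31 (SE 0.15, FDR-adjusted p = 0.472). Inside the shared batches 0 members passed, beside 0%, and 4 had an unadjusted p under 0.05, beside 16.8% of all genes. These were Rgs14 (-0.26), Rgs12 (-0.32), Gnal (-0.27) and Gng12 (0.27), with FDR-adjusted p from 0.255 to 0.293. The 7 members called in EXT vs. TA had FDR-adjusted p of 0.486 for Rgs14 and 0.620 for Gnas, the smallest of them, in FC vs. TA.

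In EXT vs. FC 0 members passed, as did 0% of all genes, and 8 had an unadjusted p under 0.05, beside 19.3%. Gng7 (0.72), Gng13 (0.85), Gnb1 (0.30), Rgs6 (0.51) and Rgs10 (0.34) had higher values in EXT, and Rgs5 (-0.79), Rgs4 (-0.48) and Gnai1 (-0.22) lower ones, with FDR-adjusted p from 0.219 to 0.234. Inside the shared batches 0 members passed, beside 0%, and 2 had an unadjusted p under 0.05, beside 5.16%. EXT vs. TA and EXT vs. FC share the EXT mice, so the values of Gng7, Gng13 and Gnai1 in both are not independent.

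The third comparison asked whether the effect of the group differed between the sexes. The interaction of group and sex passed for 0 of 37 members in EXT vs. TA, beside 0% of all genes, and 4 had an unadjusted p under 0.05, beside 4.13%. For Rgs12 the difference between EXT and TA was 0.32 in females and -0.38 in males, and the interaction was 0.70 (SE 0.25, FDR-adjusted p = 0.998). Rgs17 (-0.42), Gng4 (-0.50) and Gnai1 (-0.31) had the opposite sign of interaction, at the same FDR-adjusted p. In FC vs. TA 0 members passed, beside 0%, and 3 had an unadjusted p under 0.05, beside 6.58%: Rgs3 (0.79), Rgs7 (-0.38) and Gnai1 (-0.32). The sexes were taken from the labels.

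Several members followed the markers of a cell type from mouse to mouse. To leave out batch and group, each mouse was expressed as its deviation from the mean of its batch and group, over the 39 mice in 8 such sets of at least 3, and the correlation with the mean level of each marker list was tested by 100000 permutations inside the sets. Of 259 relations 29 had both Pearson's r and Spearman's rank correlation (rs) at an adjusted p under 0.05. The list of striatal projection neurons gave 11 of these, 9 positive and 2 negative. The share of all genes in the table that follow these lists was not computed. The counts therefore do not set the members apart from other genes. Gng7 (r = 0.872, rs = 0.884), Rgs8 (r = 0.824, rs = 0.796), Gnal (r = 0.817, rs = 0.813), Rgs9 (r = 0.791, rs = 0.768) and Rgs7bp (r = 0.767, rs = 0.739) followed it most closely, with adjusted permutation p from 0.000518 to 0.000971. Without the 2 mice farthest from the median score, r was 0.838, 0.775, 0.791, 0.743 and 0.682. Rgs20 (r = 0.731), Gnb5 (r = 0.693), Rgs4 (r = 0.585) and Rgs10 (r = 0.576) also rose with the score, and Gng2 (r = -0.585) and Gnai1 (r = -0.560) fell with it. The striatal list had a median of 7.61 in TA and 7.61 in EXT mice, and ranged from 6.74 to 7.89 in TA and from 6.32 to 9.05 in EXT. This score was added as a covariate to the fit with batch as a number, over all EXT and TA mice. Gng7 was then 0.48 higher in EXT than in TA (FDR-adjusted p = 0.0333) and Rgs7bp 0.44 (FDR-adjusted p = 0.0151). The call of Gng7 was lost with the astrocyte score (0.55, FDR-adjusted p = 0.0652) or the oligodendrocyte score (0.50, FDR-adjusted p = 0.0714) in place of the striatal score. These fits include the EXT mice of batches without TA mice. No marker score was fitted inside the shared batches. Without a score the differences there were 0.34 for Gng7 (FDR-adjusted p = 0.318) and 0.38 for Rgs7bp (FDR-adjusted p = 0.182). The part of the striatal list in them was not tested.

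**Figure D5:**
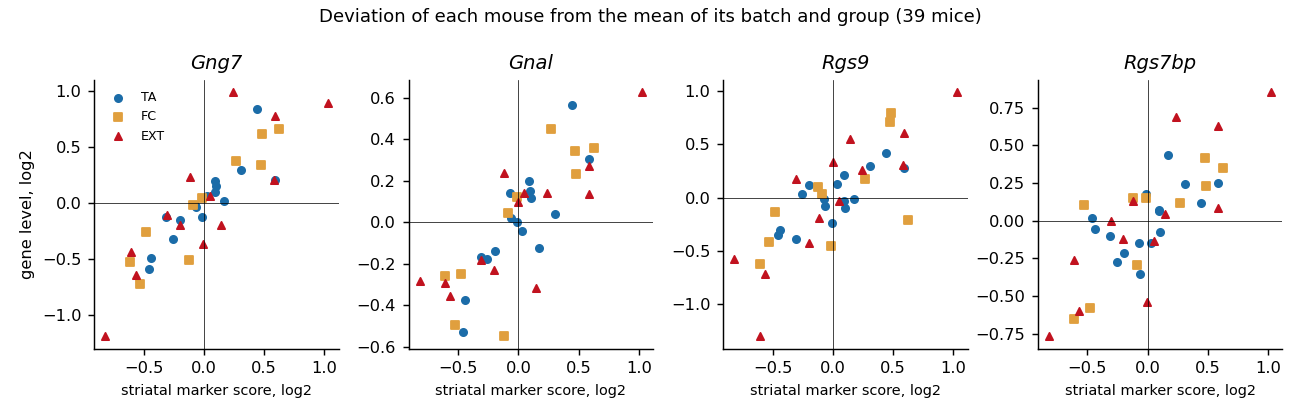
Level of Gng7, Gnal, Rgs9 and Rgs7bp (vertical axes, log2) against the mean level of the striatal marker list (horizontal axes, log2), each as the deviation of a mouse from the mean of its batch and group, in 39 mice. In each panel the points rise from lower left to upper right, with r from 0.767 to 0.872.

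Other lists gave other members. Gng12 (r = 0.760, rs = 0.676), Rgs5 (r = 0.635, rs = 0.616), Gna13 (r = 0.561, rs = 0.528) and Gnai2 (r = 0.465, rs = 0.572) rose with the astrocyte markers, and Gna12 (r = 0.637, rs = 0.634) with the oligodendrocyte markers. Gnaz, Gng4 and Rgs19 fell with the oligodendrocyte markers, at r from -0.539 to -0.493. Rgs3 (r = 0.686) and Gng5 (r = 0.666) rose and Gng2 (r = -0.769), Rgs5 (r = -0.564) and Rgs7 (r = -0.505) fell with the 4 choroid plexus markers in the table. Rgs5, widely used as a marker of pericytes, rose with the glutamatergic markers (r = 0.739, rs = 0.743), while the table held 0 of 13 endothelial and mural markers. Rgs2, which acts on Gq, rose with the central amygdala markers (r = 0.495, rs = 0.484), and Gna13 fell with them (r = -0.546, rs = -0.516). Of the 7 members called in EXT vs. TA, Gng13, Gnas, Gnb4 and Rgs14 were in none of the 29 relations.

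Pairs of members that work in 1 complex were compared in the same way. Gnal and Gng7, the subunits of the striatal Golf protein, moved together from mouse to mouse (r = 0.847, rs = 0.913, adjusted permutation p = 6.00e-05 for each). Rgs9 followed Gnb5 (r = 0.633, rs = 0.627) and its anchor Rgs7bp (r = 0.573, rs = 0.492), and Gnb5 and Rgs7bp were more loosely related (r = 0.434, rs = 0.392). For Rgs7 and Gnb5 (r = 0.0651, rs = 0.154) and for Gnb1 and Gng2 (r = -0.274, rs = -0.266) no relation was detected. All 6 pairs tested are given here, and r over Gnb5 and Rgs7bp fell from 0.434 to 0.278 without the 2 most distant mice. Gnal, Gng7, Rgs9, Gnb5 and Rgs7bp each followed the striatal marker list as well. The part of that list in the relations between pairs was not tested, and pairs outside a complex were not compared.

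The promoters of the members were read because G proteins that act on adenylyl cyclase feed the cAMP pathway, and the study turned to CREB, the factor that binds the cAMP response element TGACGTCA. RefSeq promoters of GRCm38.p6, from 250 bases before to 50 bases after a start, were found for 31 of 37 members (44 promoters). The full element, read on both strands, was in 0 of these 44, beside 3.34% of the 8472 promoters of genes in the table. Its core TGACG, which the full element contains, was in the promoters of 11 of 31 members (35.5%), beside 39.3% of the 6393 genes of the table with a promoter. The 250 bases before the start are shown for a promoter of each of the 3 members called in EXT vs. TA that hold the core, with the core (or its complement CGTCA) in capitals and on the strand of the gene. They lie at chr13:105054931-105055180 (minus strand) for Rgs7bp, at chr10:81001366-81001615 (minus strand) for Gng7, and at chr2:174327499-174327748 (plus strand) for Gnas. The stretches of Gng7 and Gnas lie inside the annotated genes (chr10:80948624-81014945 and chr2:174284320-174346744), away from their outermost start. The transcript that each start serves was not examined, so the core in Gnas is not placed in the promoter of the Gs transcript. Counted from the start, the core begins at position -171 in Rgs7bp, -109 in Gng7 and -38 in Gnas.
Rgs7bp: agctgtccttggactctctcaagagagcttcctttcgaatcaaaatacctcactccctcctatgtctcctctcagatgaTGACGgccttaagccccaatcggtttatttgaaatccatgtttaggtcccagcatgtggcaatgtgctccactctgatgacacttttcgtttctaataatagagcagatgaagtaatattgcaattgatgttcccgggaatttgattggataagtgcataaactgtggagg
Gng7: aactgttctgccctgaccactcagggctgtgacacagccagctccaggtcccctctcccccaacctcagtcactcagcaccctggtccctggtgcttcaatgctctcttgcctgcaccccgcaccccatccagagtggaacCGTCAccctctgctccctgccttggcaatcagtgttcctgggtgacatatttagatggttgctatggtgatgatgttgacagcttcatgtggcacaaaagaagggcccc
Gnas: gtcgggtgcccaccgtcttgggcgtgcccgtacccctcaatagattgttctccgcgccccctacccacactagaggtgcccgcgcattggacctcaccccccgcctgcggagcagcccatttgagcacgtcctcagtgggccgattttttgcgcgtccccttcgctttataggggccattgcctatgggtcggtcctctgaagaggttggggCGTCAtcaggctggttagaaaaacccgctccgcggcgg
Gng7 has a second promoter in the table, without the core. Gnas has 3 others, and the one that begins at chr2:174327518 overlaps the stretch shown and holds the same core. Whether the rest hold the core is not given here.

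The genes that work beside the members were taken from 2 lists: 44 effectors and adaptors, and 29 receptors. In EXT vs. TA 9 of the 44 passed, 2 higher and 7 lower, and 1 of the 29 receptors, higher, beside 21.4% of all genes. Prkar1b, a regulatory subunit of protein kinase A, had levels of 9.91, 10.30 and 10.89 in TA and 9.31, 9.78 and 10.53 in EXT mice, and fell by 0.49 (SE 0.11, FDR-adjusted p = 0.0130). Prkar1a (-0.40), of the same family, and Prkacb (-0.32), a catalytic subunit, fell too. Gprasp2 (-0.69, FDR-adjusted p = 0.0130) and Gprasp1 (-0.56, FDR-adjusted p = 0.0165), which encode sorting proteins that bind the tails of G protein-coupled receptors, each lay below the TA median in 14 of 16 EXT mice. Plcb1 (-0.41), a phospholipase C acted on by Gq, and Trio (-0.34), a guanine nucleotide exchange factor, also fell. Adcy1, the calmodulin-stimulated adenylyl cyclase, rose by 0.82 (SE 0.22, FDR-adjusted p = 0.0151), and Pcp4, a calmodulin-binding protein, by 0.56 (FDR-adjusted p = 0.0492).

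The receptor that rose was Adra2c, the Gi-coupled alpha-2C adrenergic receptor, at 0.59 (SE 0.17, FDR-adjusted p = 0.0194) with 14 of 16 EXT mice above the TA median. Ntsr2 (0.61, FDR-adjusted p = 0.0557), Adora1 (0.32, FDR-adjusted p = 0.0996), Gpr37l1 (0.51, FDR-adjusted p = 0.137) and Drd2 (0.57, FDR-adjusted p = 0.151) came next and did not pass. Inside the shared batches 4 of the 44 effectors and adaptors passed, each lower, and 0 of the 29 receptors. Over all genes 4.99% passed in either direction and 2.84% were lower. The 4 were Gprasp2 (-0.57, FDR-adjusted p = 0.0368), Gprasp1 (-0.47, FDR-adjusted p = 0.0396), Prkar1b (-0.37, FDR-adjusted p = 0.0419) and Trio (-0.36, FDR-adjusted p = 0.0499). All 4 calls were lost when batch 1 or batch 2 was left out, with array weights and with library size as a covariate, and that of Trio also with samples centred on their median, with voom weights, with 5 reads added in place of 0.5 and with a minimum mean level of 5. In 26 refits that each left out 1 EXT or TA mouse of these batches, Gprasp2, Gprasp1 and Prkar1b each passed in 11 and Trio in 5. In FC vs. TA and in EXT vs. FC 0 genes of either list passed.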

How the data were processed

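Ribosome-associated RNA of 44 mice was sequenced. The authors used Trimmomatic 0.36 for trimming, STAR with the GRCm38 genome for mapping, SAMtools for sorting and edgeR on the gene counts. They retained genes that passed a CPM minimum in each sample, dropped outlying samples, and deposited log2 CPM from limma's voom. The counting tool and its use of strand are not given in the sources used here. Batch, sex and group came from the labels. Whole reads were solved back from the deposited log2 values (360932 of 360932 within 0.05 reads), with 0.5 added to each count.

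All 8203 genes were fitted with lmFit and eBayes of limma 3.58.1 (R 4.3.3), two-sided, with sex and batch as covariates and Benjamini-Hochberg adjustment over all genes. Batch was a number in the first fit and categories inside batches 1, 2 and 5 in the second. The fit was run on simulated data that held no differences between batches, so that run could not show how batch affects the calls. Levels per kilobase used exons of protein-coding transcripts in GENCODE release M21. Correlations and figures used Python 3.11.15, numpy 2.4.6, pandas 2.3.3, scipy 1.17.1 and matplotlib 3.10.9. Members, gene lists and tests were chosen with earlier results of these data known. Genes named are the members called in a comparison or with an unadjusted p under 0.05 inside shared batches or in FC vs. TA, the highest member of each class, every beta subunit, and the 5 smallest p of each pathway list. Further genes were named after their values were seen. Promoters are those of RefSeq. Counting precision varies with depth, and spread is given between mice, each an animal of its own.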

Additional observations from a re-analysis of the deposited data

How the results depend on the processing

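In EXT vs. TA the count of 7 members fell to 0 with batch as categories, without batches 3 and 4, with array weights, or with log2 library size as a covariate, which was lower in EXT mice. Over all genes these 4 alternatives left 2, 3, 5 and 0 calls of 1755. Chosen after seeing the data, a striatal marker score as a covariate gave 12 members (32.4%, beside 25.5% of all genes) and an astrocyte marker score 4 (10.8%, beside 9.95%). Leaving out each TA or EXT mouse in turn gave 4 to 10 members, and 1079 to 2209 of all genes. The count was 4 without EXT replicate 1, 5 or 11. Gng7 was lost in 22 of these 32 refits, Rgs14 in 5 and Rgs7bp in 4, while Gng13, Gnb4, Gnas and Gnai1 passed in all of them. Inside the shared batches the count was 2 without batch 5, namely Gng5 (1.18) and Rgs3 (0.99), and 0 under the 9 other alternatives, while the 409 calls over all genes ran from 0 to 589. Leaving out each EXT or TA mouse of these batches in turn gave 0 to 1 members (Gnb4 without TA replicate 16) and 3 to 835 of all genes. All other counts of members stayed at 0. The 10 pathway genes called became 0 with batch as categories, without batches 3 and 4, with array weights or with library size, and 5 with the astrocyte score.

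Signs turned in EXT vs. FC for Gnas with batch as categories (0.073), without batches 3 and 4 (0.012) and with array weights (0.11), for Rgs14 with batch as categories (0.19), without batches 3 and 4 (0.10) and with library size (0.14), and for Gna12 with batch as categories (-0.36), without batches 3 and 4 (-0.30) and with array weights (-0.23). They turned in FC vs. TA for Gnai1 with array weights (0.030) and for Gng13 with library size (-0.0051), and in EXT vs. TA for Gna12 without batches 3 and 4 (-0.0012). Inside the shared batches they turned for Rgs14 without batch 2 (0.036) and for Gna12 without batch 5 (0.31), after median centring (0.0066), with voom weights (0.0075) and with library size (0.0065). The cause was not tested. No paired analysis was possible because every mouse has its own number and the groups share none.

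Standard errors of the members in EXT vs. TA ran from 0.07 (Gna11) to 0.34 (Gng5), which sets the size of difference that could pass. Strand and counting are not stated, so members whose exons overlap other genes have uncertain levels.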
